A study of Mus musculus with 15 samples.

Results

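The proline tRNA fragments of mouse sperm are the 3 entries ProAGG, ProCGG and ProTGG of a table of 47 transfer RNA fragments (tRFs). They were taken by name, as the entries assigned to proline tRNAs, and the rule uses no measured value, although the family was chosen with earlier results of these data known. Small RNA was sequenced in caudal epididymal sperm of 15 C57BL/6 male mice, given as C57BL/6NTac from Taconic in the study's methods. The 4 groups were 3 F0 males fed a control diet (CO F0), 4 F0 males fed an obesity-inducing diet (OID F0), 4 sons of CO-fed fathers (CO F1) and 4 sons of OID-fed fathers (OID F1). F0 males received their diets for 7 weeks from weaning, and F1 males of both lineages were kept on the control diet, so that OID F1 males differ from CO F1 males in the diet of the father. In all groups, somatic cells were lysed before RNA extraction, and RNA of 30 to 45 nucleotides was cut from a gel.

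Proline tRNAs carry proline to the ribosome, and their isoacceptors differ in the anticodon with which they read the proline codons. AGG, CGG and TGG in the names are these anticodons, written as DNA. Cleavage of a tRNA in or near the anticodon loop gives long tRFs, which are abundant in mature sperm. Fragments of different isoacceptors can share long stretches of sequence, because isoacceptors of 1 amino acid are often near-identical outside the anticodon.

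RefSeq placed 16 proline tRNA loci on 9 chromosomes of GRCm38, each 72 bases long. ProAGG had 6 loci, at chr1:165641634-165641705, chr3:51359407-51359478, chr6:29388824-29388895, chr7:98815676-98815747, chr13:23436994-23437065 and chr14:51064814-51064885. ProCGG had 3 loci, at chr1:165642271-165642342, chr11:69040385-69040456 and chr17:23540915-23540986. ProTGG had 7 loci, at chr3:51358354-51358425, chr7:98815415-98815486, chr11:48856280-48856351, chr11:67291139-67291210, chr14:51090647-51090718, chr17:23546476-23546547 and chrX:14702616-14702687. Loci of different anticodons thus lay near each other on chromosomes 1, 3, 7, 14 and 17. Of the 16, only n-TPtgg2 on chromosome 11 overlapped a gene of GENCODE M21, where it lies in an exon of a retained-intron transcript of Myh8, a myosin heavy chain gene. A table entry pools all loci of its anticodon, so no value belongs to a single locus.

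The genomic sequence of n-TPtgg2 (GRCm38, chr11:67291139-67291210, plus strand) is shown to place the anticodon, in capitals, within a tRNA gene. It was chosen because its sequence could be read from a GENCODE M21 transcript that covers it, and those of the other 15 loci were not analysed here, so it is not shown to be typical of them or a main source of the reads.
n-TPtgg2: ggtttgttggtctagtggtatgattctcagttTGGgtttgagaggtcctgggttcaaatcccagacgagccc
The anticodon takes bases 33 to 35, so that 32 bases precede it, a length within the window of 30 to 45 nucleotides that was cut from the gel. The table does not say which end of the tRNA a read came from.

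Values are normalized read counts. After an offset of 0.5 was subtracted, all 705 tRF values were whole multiples, within 0.001 reads, of the worth of 1 read in that library, which gave the reads behind each value. Libraries held 17966 to 5363471 tRF reads. CO F0 replicate 3 (17966) and CO F1 replicate 2 (35677) were the only libraries under 100000, and both belong to CO groups. In CO F0 replicate 3, ProAGG rested on 26 reads, with a 95% Poisson interval of 819 to 1836 around its value of 1253. In CO F1 replicate 2 it rested on 67 reads, and ProTGG on 122 reads, with an interval of 1902 to 2734 around 2290. Each proline tRF had at least 185 reads in the other 13 libraries. Without molecular identifiers, reads may repeat 1 molecule. All intervals and counting errors given here treat reads as independent and cover counting error alone.

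Proline tRFs were of middle abundance. Over the 15 libraries, ProTGG had the highest mean of the 3 (1388, rank 23 of 47), followed by ProAGG (1136, rank 24) and ProCGG (610.01, rank 28). This order compares normalized reads of fragments from one size window, not amounts per length. ProAGG exceeded ProCGG in 15 of 15 libraries, and ProTGG exceeded ProAGG in 14 of 15, the exception being OID F0 replicate 4. ProTGG and ProAGG were close in most libraries, whereas ProCGG lay clearly under both.

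ProAGG, assigned to the isoacceptor with an A at the first anticodon position, had values of 1257, 1276 and 1253 in CO F0 and of 1196, 1150, 1070 and 1184 in OID F0. In F1 it had values of 1786, 1258, 1041 and 714 in CO and of 989, 1386, 723 and 761 in OID. Its F0 values were close together, although that of CO F0 replicate 3 rested on 26 reads, and the OID values lay under all CO values. In F1 both groups were wide and overlapped. The group means were 1262 ± 12.5 (SD, n = 3), 1150 ± 56.5 (n = 4), 1199 ± 450 (n = 4) and 965 ± 305 (n = 4) in the order in which the groups were named.

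ProCGG, the entry of the isoacceptor with a C at that position, had values of 677, 737 and 675 in CO F0 and of 619, 615, 557 and 612 in OID F0. In F1 it had values of 940, 714, 562 and 420 in CO and of 517, 719, 386 and 400 in OID. The picture was that of ProAGG at a lower level, again without overlap in F0 and with overlap in F1. Means were 696 ± 35.1, 601 ± 29.3, 659 ± 223 and 505 ± 154 in the same order of groups (SD, n = 3, 4, 4 and 4).

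ProTGG, the entry of the isoacceptor with a T (U in the RNA) at that position, had values of 1612, 1375 and 1831 in CO F0 and of 1223, 1686, 1233 and 1150 in OID F0. In F1 it had values of 2542, 2290, 1101 and 734 in CO and of 1016, 1492, 753 and 775 in OID. Both generations overlapped, OID F0 replicate 2 lying among the CO F0 values and CO F1 replicates 1 and 2 lying above all OID F1 values. Means were 1606 ± 228, 1323 ± 245, 1667 ± 884 and 1009 ± 343 (SD, n = 3, 4, 4 and 4).

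**Figure D1:**
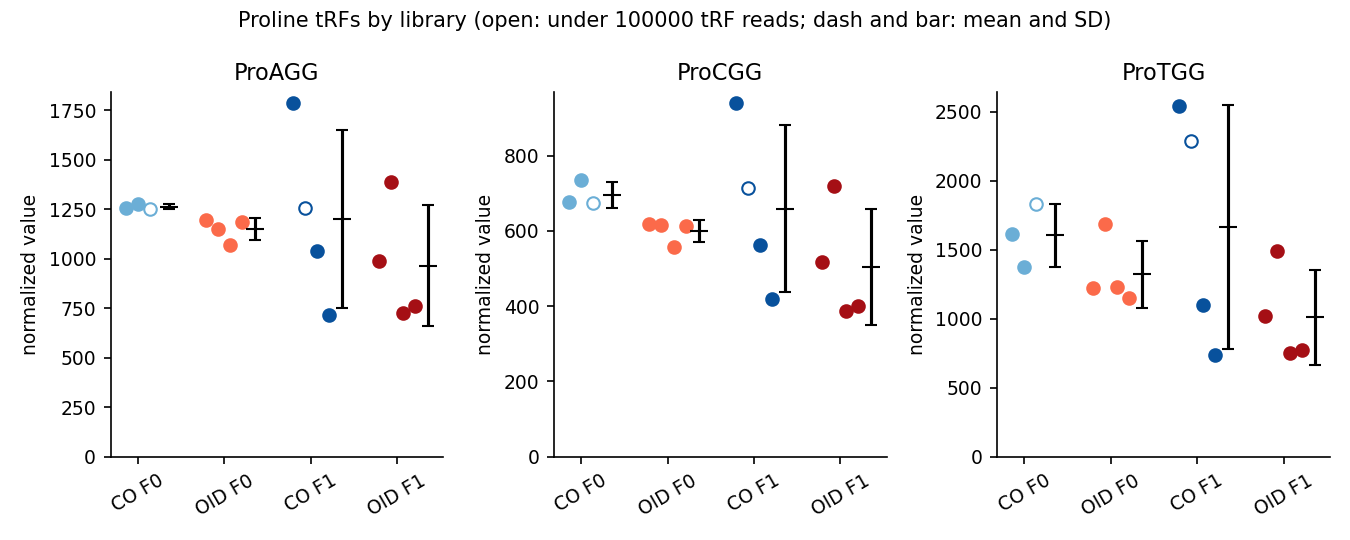
Normalized value (linear axis from 0) of ProAGG, ProCGG and ProTGG in each of the 15 libraries, by group, with the group mean and SD as a dash and bar and open points for the 2 libraries under 100000 tRF reads. OID F0 points lie under CO F0 points for ProAGG and ProCGG, and the F1 groups overlap for all 3.

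The spread of the proline tRFs differed between the generations. On the log2 scale, the SD within groups was 0.06 in F0 and 0.49 in F1 for ProAGG, 0.07 and 0.46 for ProCGG, and 0.23 and 0.69 for ProTGG. These were the 3 lowest F0 values among the 47 tRFs, whose median SD was 0.58 in F0 and 0.54 in F1. The tightness in F0 depended on the scaling. With each library rescaled to the same summed tRF value, a comparison added after the data were seen, the F0 SD was 0.46, 0.46 and 0.47 for ProAGG, ProCGG and ProTGG, ranks 9, 8 and 10 from the lowest, and the F1 SD was 0.41, 0.38 and 0.58.

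Ratios of entries within a library do not depend on its scaling. ProCGG to ProAGG was 0.538, 0.577 and 0.539 in CO F0, 0.518, 0.535, 0.521 and 0.517 in OID F0, 0.527, 0.567, 0.540 and 0.588 in CO F1, and 0.523, 0.519, 0.534 and 0.525 in OID F1. It thus stayed between 0.517 and 0.588, with a coefficient of variation of 4.16% over the 15 libraries. Set against counting error, its chi-square was 0.464 per degree of freedom (14 degrees of freedom), where independent reads drawn at 1 fixed ratio give about 1. By that measure no variation of this ratio between libraries was detectable at this depth, but reads shared between entries are not independent. The authors gave reads shared between tRNAs to the entries by weight, and the part of that step in the fixed ratio was not tested.

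ProTGG to ProAGG was 1.28, 1.08 and 1.46 in CO F0 and 1.02, 1.47, 1.15 and 0.971 in OID F0. It was 1.42, 1.82, 1.06 and 1.03 in CO F1 and 1.03, 1.08, 1.04 and 1.02 in OID F1. The ratio was over 1.2 in 5 libraries, namely CO F0 replicates 1 and 3, OID F0 replicate 2 and CO F1 replicates 1 and 2, and at most 1.15 in the other 10. Its coefficient of variation was 20.4% and its chi-square 26.8 per degree of freedom, so that libraries differed beyond the counting error of independent reads. The 2 libraries under 100000 tRF reads were among the 5, with ratios of 1.46 and 1.82. CO F1 replicate 1, at 1.42, had 2675346 tRF reads.

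**Figure D2:**
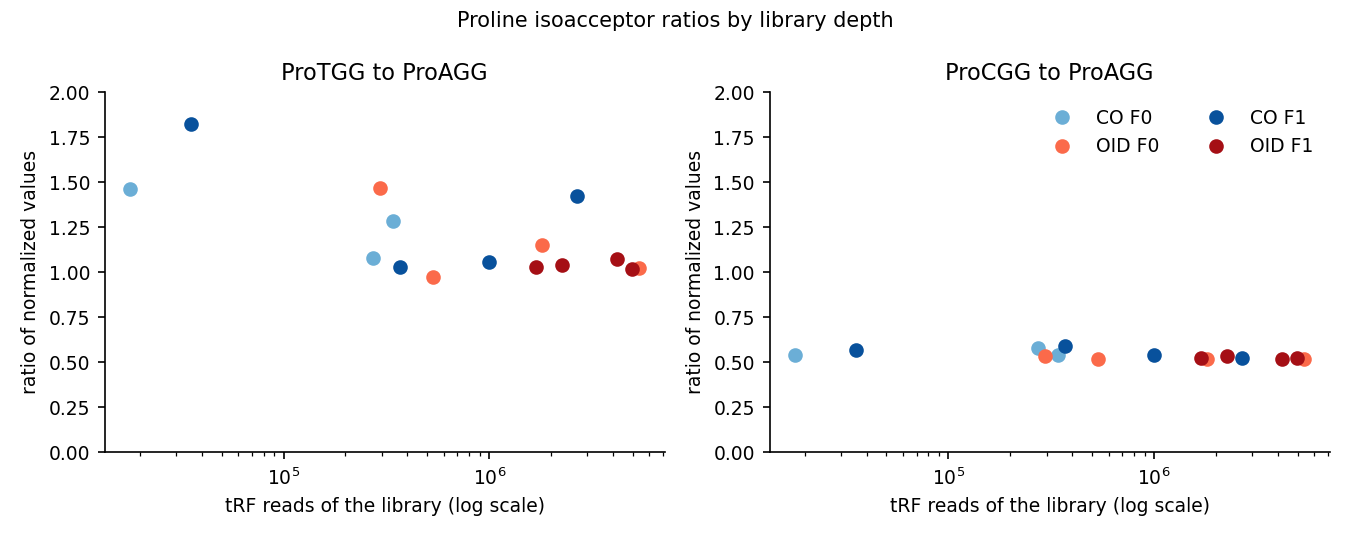
Ratio of normalized values of ProTGG to ProAGG (left) and of ProCGG to ProAGG (right) against the tRF reads of each library on a log axis, 1 point per library, coloured by group. The ProCGG to ProAGG points form a flat line between 0.517 and 0.588, while ProTGG to ProAGG reaches from 0.971 to 1.82 and is highest in CO F1 replicate 2.

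The isoacceptor ratios were compared between the diets in 6 two-sided exact permutation tests, which double the smaller tail. With this rule and these group sizes the adjusted p cannot go below 0.0571, so none could pass the threshold of 0.05. The sizes of the differences are given as a description. The smallest unadjusted exact permutation p is 0.0571 in F0 and 0.0286 in F1. In F0, the log2 ratio of ProCGG to ProAGG was lower in OID (difference -0.08, SE 0.04), with all 4 OID values under all 3 CO values. The margin was narrow: the highest OID ratio was 0.535, and the lowest CO ratios were 0.538 and 0.539. The ratio of 0.539, in CO F0 replicate 3, rested on 14 ProCGG and 26 ProAGG reads. How many other pairs of tRFs separate in this way was not tested. The two-sided exact permutation test gave p = 0.0571, and 0.171 after Benjamini-Hochberg adjustment over 6 ratio tests. In F1 the same ratio differed by -0.08 (SE 0.04), with overlap, at an exact permutation p = 0.0571 and an adjusted value of 0.171. ProTGG to ProAGG differed by -0.15 (SE 0.18) in F0 and by -0.32 (SE 0.20) in F1 on the log2 scale, at exact permutation p = 0.514 and p = 0.200 (adjusted 0.617 and 0.400). ProTGG to ProCGG differed by -0.07 (SE 0.20) and -0.24 (SE 0.20), at exact permutation p = 0.743 and p = 0.371 (adjusted 0.743 and 0.557). Single libraries moved the ratios with ProTGG. ProTGG to ProAGG in F0 was -0.046 without CO F0 replicate 3, the library with the fewest reads, and -0.27 without OID F0 replicate 2, and in F1 it was -0.15 without CO F1 replicate 2, the other library under 100000 reads. ProTGG to ProCGG was 0.047 in F0 without CO F0 replicate 3 and -0.08 in F1 without CO F1 replicate 2.

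As shares of the proline sum, the same data read as follows. ProTGG made up 44.9% ± 4.09 of the summed proline value in CO F0, 42.8% ± 4.36 in OID F0, 45.5% ± 6.75 in CO F1 and 40.6% ± 0.627 in OID F1 (SD, n = 3, 4, 4 and 4). ProCGG made up 19.6%, 19.6%, 19.5% and 20.5%, and ProAGG the rest, with 37.6% in OID F0 and 39.0% in OID F1. The composition was nearly the same in all 4 OID F1 males and most variable in CO F1.

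The 3 tRFs resembled each other more than other tRFs. Over the 15 libraries, on log2(value + 1), Pearson's r was 0.987 for ProAGG and ProCGG, 0.920 for ProCGG and ProTGG and 0.905 for ProAGG and ProTGG. The next most alike tRF of each was AlaAGC, a fragment of an alanine tRNA, with r of 0.627 for ProAGG, 0.692 for ProCGG and 0.640 for ProTGG. After removal of the group means the 3 proline values of r were 0.994, 0.893 and 0.891, in the same order. These are descriptions: the points share a library, its scaling factor and its depth, and the entries may share reads.

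Measured by the spread of a ratio, which does not depend on the scaling, ProAGG and ProCGG were the tightest of all 1081 pairs of tRFs. The SD of their log2 ratio was 0.06, beside 0.16 for counting error as a root mean square over the 15 libraries. The 2 libraries under 100000 tRF reads weigh most in that figure, so it overstates the counting error of the deeper libraries. LeuAAG and LeuTAG followed at 0.10, then ValAAC and ValCAC at 0.19 and GlyCCC and GlyGCC at 0.19. ProCGG and ProTGG ranked 5 at 0.26 and ProAGG and ProTGG ranked 6 at 0.27. The median pair had an SD of 0.93, and the 18 pairs within the 6 families that hold ANN, CNN and TNN anticodons (Ala, Leu, Pro, Ser, Thr and Val) had a median of 0.74.

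**Figure D3:**
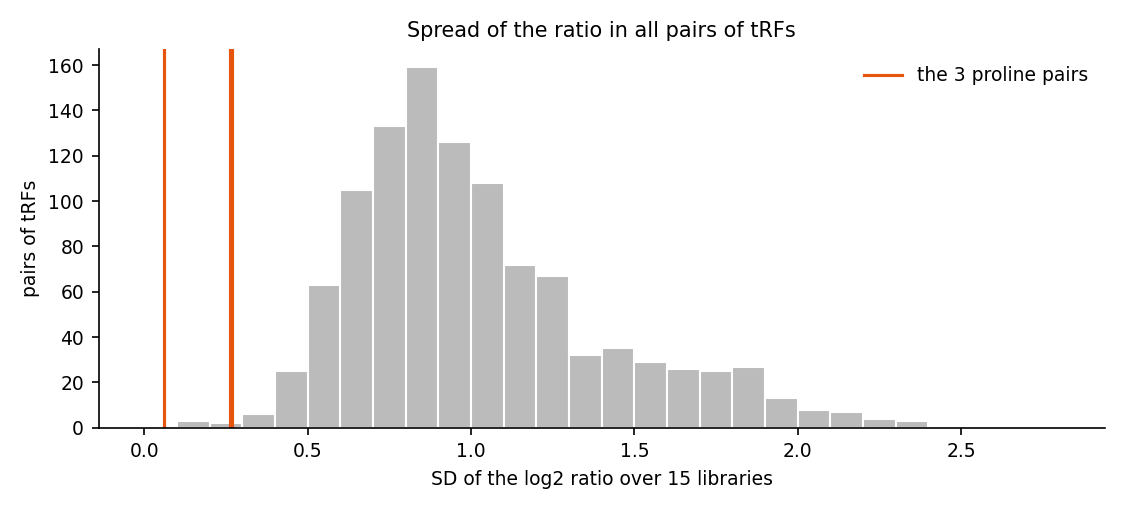
Histogram of the SD of the log2 ratio over the 15 libraries (horizontal axis, log2 units) for all 1081 pairs of the 47 tRFs (vertical axis, number of pairs in bins), with the 3 proline pairs as orange lines. The proline pairs stand at 0.06, 0.26 and 0.27, at the low end of a distribution with a median of 0.93.

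The summed proline level was 3545, 3388 and 3759 in CO F0 and 3038, 3451, 2861 and 2947 in OID F0. It was 5268, 4261, 2704 and 1868 in CO F1 and 2522, 3597, 1862 and 1936 in OID F1. The groups overlapped in both generations, with means of 3564 ± 187 and 3074 ± 262 in F0 and of 3525 ± 1527 and 2479 ± 802 in F1 (SD, n = 3, 4, 4 and 4). The ratio of the OID mean to the CO mean was 0.863 among fathers and 0.703 among sons. On the log2 scale the difference among sons was -0.45, and it ran from -0.22 without CO F1 replicate 1 to -0.72 without CO F1 replicate 4. Because the sum is over chosen entries, no test was made of it.

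As a share of tRF reads, proline took 0.658%, 0.482% and 0.434% in CO F0 and 0.537%, 0.351%, 0.544% and 0.261% in OID F0. In F1 it took 0.761%, 0.636%, 0.431% and 0.371% in CO and 0.340%, 0.544%, 0.267% and 0.297% in OID. The group means were 0.525% ± 0.118, 0.423% ± 0.140, 0.550% ± 0.181 and 0.362% ± 0.125 (SD, n = 3, 4, 4 and 4). The least precise share was that of CO F0 replicate 3, whose 95% Wilson interval ran from 0.348% to 0.541%. In such a share, less of the proline fragments and more of other fragments cannot be told apart.

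**Figure D4:**
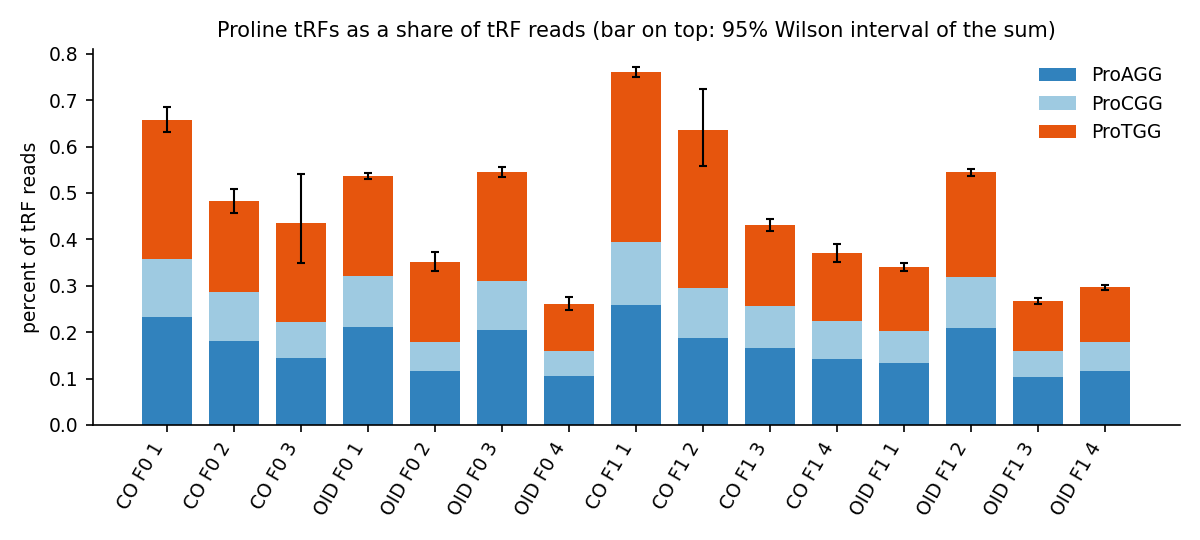
Percent of tRF reads assigned to ProAGG, ProCGG and ProTGG in each library (stacked bars from 0), with the 95% Wilson interval of the sum on top. Shares run from 0.261% in OID F0 replicate 4 to 0.761% in CO F1 replicate 1, and the CO and OID bars overlap in both generations.

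The first comparison asked whether the father's own diet moved the proline tRFs of the sperm. With limma on log2(value + 1) and adjustment over 47 tRFs, 0 of the 3 proline tRFs passed in F0, against 0% of all tRFs (0 of 47). The log2 fold change of OID against CO was -0.14 for ProAGG (SE 0.23, limma adjusted p = 0.790), -0.21 for ProCGG (SE 0.23, adjusted p = 0.626) and -0.29 for ProTGG (SE 0.27, adjusted p = 0.552). The 95% intervals ran from -0.67 to 0.40, from -0.75 to 0.32 and from -0.91 to 0.34. Limma draws the variance of each tRF toward a value common to the 47. The F0 SD within groups was 0.06 for ProAGG, 0.07 for ProCGG and 0.23 for ProTGG. The SEs of ProAGG and ProCGG thus reflect the other tRFs more than their own spread. CO F0 libraries had fewer tRF reads (median 271812) than OID F0 libraries (median 1167991), and with log2 depth as a covariate the fold change of ProTGG was -0.05, while those of ProAGG and ProCGG were -0.14 and -0.22. At an unadjusted limma p under 0.05, 0 proline tRFs and 10 of the 47 tRFs (21.3%) were called, and limma-voom on the recovered reads called 0 after adjustment.

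All OID F0 values of ProAGG and ProCGG lay under all CO F0 values, which 10.6% of all tRFs (5 of 47) did. The exact permutation p of ProAGG and ProCGG was 0.0571 each, the smallest that this two-sided test gives at 3 against 4, and that of ProTGG was 0.171. The ratios of means were 0.911, 0.864 and 0.824 for ProAGG, ProCGG and ProTGG. The separation depended on the scaling: as shares of tRF reads, all 3 overlapped, ProAGG taking 0.145% to 0.233% in CO and 0.105% to 0.211% in OID, while with GlyGCC and GluCTC left out of the scaling all 3, ProTGG included, lay lower in OID without overlap. The same separation was met by 4.26% of all tRFs (2 of 47) as shares of tRF reads and by 14.9% (7 of 47) in the scaling without GlyGCC and GluCTC, which moved the median log2 fold change of all tRFs from 0.02 to -0.33. Overlap under these scalings was compared after the data were seen.

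The second comparison asked the same of sons by the diet of the father. In F1, 0 of the 3 passed, against 0% of all 47 tRFs, and 0 proline tRFs and 17% of all tRFs (8 of 47) were called at an unadjusted limma p under 0.05. The log2 fold change was -0.29 for ProAGG (SE 0.34, limma adjusted p = 0.599), -0.37 for ProCGG (SE 0.33, adjusted p = 0.557) and -0.60 for ProTGG (SE 0.42, adjusted p = 0.411). The intervals ran from -1.04 to 0.47, from -1.09 to 0.35 and from -1.54 to 0.33, so that all include 0. All 3 overlapped between the groups, where 8.51% of tRFs lay wholly lower in OID, and the exact permutation p was 0.514, 0.257 and 0.257. They overlapped also as shares of tRF reads and in the scaling without GlyGCC and GluCTC, where 8.51% and 6.38% of all tRFs lay wholly lower in OID. Without CO F1 replicate 1, the library with the highest value of all 3, the log2 fold changes were -0.07, -0.17 and -0.34. CO F1 libraries had fewer tRF reads (median 680741.5) than OID F1 libraries (median 3221587). With log2 depth as a covariate the fold changes of ProAGG, ProCGG and ProTGG were -0.45, -0.48 and -0.56. In libraries of at least 100000 reads they were -0.24, -0.31 and -0.39.

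All 3 had a log2 fold change under 0 in both generations. Taken 1 generation at a time, 48.9% of all tRFs were under 0 in F0 and 46.8% in F1. Of the 23 tRFs under 0 in F0, proline included, all but LeuCAG, LeuTAA, SerAGA and SerTGA were also under 0 in F1. A fold change under 0 in both generations was thus not particular to proline. The median of the proline tRFs was -0.21 in F0 and -0.37 in F1, beside medians of 0.02 and 0.08 over the 47. From the lowest of 47 fold changes, ProTGG, ProCGG and ProAGG ranked 18, 20 and 21 in F0 and 9, 15 and 19 in F1. In both generations they stood in the order ProTGG, ProCGG, ProAGG.

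**Figure D5:**
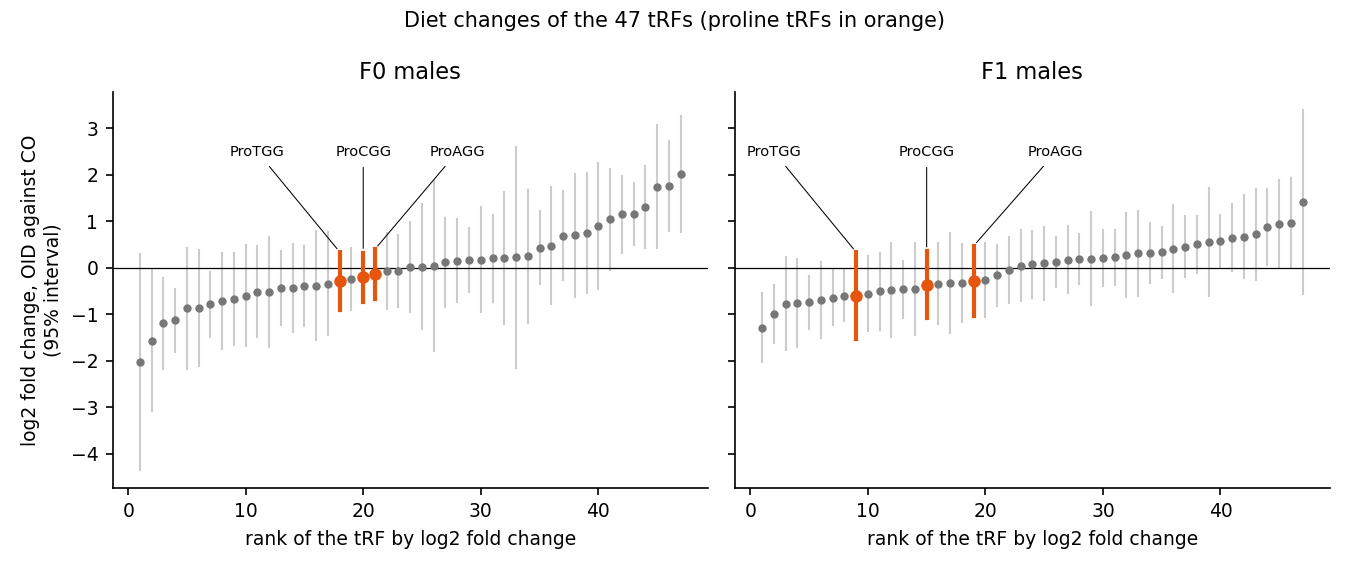
Log2 fold change of OID against CO with 95% limma intervals (vertical axis) for the 47 tRFs ranked from lowest to highest (horizontal axis), in F0 and F1 males, with proline tRFs in orange. The proline tRFs lie at -0.14 to -0.29 in F0 and at -0.29 to -0.60 in F1, and all 6 intervals include 0.

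Set against families of the same anticodon make-up, the proline tRFs had the most similar fold changes. The 3 proline fold changes spanned 0.15 on the log2 scale in F0 and 0.32 in F1, the narrowest of the 6 families in each, where the median family spanned 0.74 and 0.72. Valine tRFs were near, at 0.27 and 0.40, and leucine tRFs spanned 0.39 and 0.90. The lowest read count of a member in any library was 14 for proline, 22 for leucine and 19 for valine. It was 6 for alanine and 1 for serine and threonine. The part of counting error in these spans was not tested. Of the 15 other tRFs of these families, 8 had lower and 7 higher values in OID F0, and 6 lower and 9 higher in OID F1. By limma 0 of the 15 passed after adjustment, and 5 and 2 had an unadjusted p under 0.05. They ran from -0.88 for AlaTGC to 2.01 for ValAAC in F0 and from -0.77 for AlaTGC to 0.87 for SerCGA in F1, with medians of -0.07 and 0.08. The TNN member stood below the ANN member in 4 of 6 families in F0 and in 3 of 6 in F1. These counts include proline, at -0.15 and -0.32. A lower TNN than ANN fold change was thus not particular to proline, and the families did not share 1 direction.

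The diet changes of the generations were also compared directly. The interaction of diet and generation was -0.15 for ProAGG (SE 0.47), -0.15 for ProCGG (SE 0.46) and -0.32 for ProTGG (SE 0.56), with a limma adjusted p = 0.988 for each, and 0% of all tRFs passed (4.26% unadjusted). F1 against F0, in a fit with diet as the other term, gave -0.23 (SE 0.23), -0.22 (SE 0.22) and -0.28 (SE 0.28) with a limma adjusted p = 0.491 for each, where 0% of tRFs passed after adjustment and 14.9% before it. Neither the size of the diet change nor the level of the proline tRFs was thus shown to differ between fathers and sons.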

How the data were processed

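Per the study's methods, the authors used Trimmomatic to trim reads and GRCm38/mm10 as the genome (Bowtie2 2.3.4.1 and DESeq2 are named in the submitters' processing notes), annotated tRNAs with blastn and added shared reads to unique reads by alignment score. Each deposited value is a normalized signal of 1 entry in 1 library, called TPM by the study, although 1 library summed to more than 1000000 over the 215 entries. The 47 tRFs were used, and 4 mature tRNA and 164 miRNA entries were not. No sperm marker could be checked, since the table holds no mRNA.

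Groups and replicate numbers came from the sample labels, which do not say whether replicates of a group were separate cages or litters. Permutation p-values thus measure the spread between these samples. Limma p-values also draw on the spread of all 47 tRFs. Reads were recovered from the steps of the values (100% of 705 values whole within 0.001 reads). Diet was compared within each generation with limma 3.58.1 in R 4.3.3 (no trend) on log2(value + 1), which understates changes of low values, with Benjamini-Hochberg adjustment over 47 tRFs at 0.05, after tests on simulated data. For single tRFs and ratios, exact permutation tests were two-sided (scipy 1.17.1, Python 3.11.15). Tests based on negative binomial counts were not run. The proline tRFs are always named, with the most alike tRFs by Pearson's r and 5 comparison families. These members and lists were chosen with earlier results of these data known. Alternatives were pseudocounts of 0.1 and 10, a minimum mean of 100, other scalings, an intensity trend, limma-voom, a depth term, libraries of at least 100000 reads, all groups in 1 fit, the replicate block and each library left out. tRNA loci are from RefSeq on GRCm38.p6. Figures were drawn with matplotlib 3.10.9.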

Additional observations from a re-analysis of the deposited data

Results flagged for a closer look

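On the scale of the normalized values, ProCGG in OID F0 replicate 3 stood apart from the other 3 males of its group. Its value of 557 lay under 619, 615 and 612, and the gap to the nearest of them took 0.894 of the range of the group on the log2 scale, more than Dixon's test allows for 4 samples. It was 1 of 24 sets of group values examined, of which chance would single out about 1.2. ProAGG was also lowest in this library, at 1070, and the library had 1803331 tRF reads. The low position depended on the scaling. As a share of tRF reads, the proline sum of this library was 0.544%, the highest of its group, beside 0.537%, 0.351% and 0.261%.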

How the results depend on the processing

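Of 273 proline fold changes under the alternatives, 268 kept their direction, 0 passed the threshold, and the lowest limma adjusted p was 0.276. Not all of them could change direction. The minimum mean, the intensity trend, all groups in 1 fit and the F1 replicate block left the fold changes as they were. In F0 and F1, the libraries of at least 100000 reads repeat the fits without CO F0 replicate 3 and without CO F1 replicate 2. The 5 that reversed were interactions: 0.28, 0.27 and 0.11 for ProAGG, ProCGG and ProTGG with GlyGCC and GluCTC left out of the scaling, and 0.066 and 0.037 for ProAGG and ProCGG without CO F1 replicate 1. Leaving out each library gave interactions of -0.37 to 0.066, -0.35 to 0.037 and -0.65 to -0.05, F0 changes of -0.15 to -0.10, -0.23 to -0.17 and -0.41 to -0.19, and F1 changes of -0.51 to -0.07, -0.56 to -0.17 and -0.94 to -0.34. The F0 ratio of ProTGG to ProCGG became 0.047 without CO F0 replicate 3, the same as with libraries of at least 100000 reads only (range without each library -0.22 to 0.047). The ratios of ProTGG to ProAGG ran from -0.27 to -0.046 in F0 and from -0.43 to -0.15 in F1. The F0 summed level was -0.35 as a share of summed tRF values, against -0.22.

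tRFs called in F0 numbered 6 with all 4 groups in 1 fit and 0 to 2 with each library left out (1 without CO F0 replicate 1, 2 without OID F0 replicate 3). In F1 they numbered 3 with the same summed tRF value and 0 to 1 with each library left out (1 without CO F1 replicate 1). None of these counts held a proline tRF. Scaling to the same summed tRF value moved the median of all tRFs by -0.13 in F0 and -0.15 in F1, and leaving out GlyGCC and GluCTC moved it by -0.35 and 0.08. Relative to the median of all tRFs, ProTGG was at -0.30 or -0.31 in F0 and at -0.68 in F1 under each of these scalings.

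Same-numbered males correlated at -0.27 to 0.30 in their deviations. Differently numbered males were not compared, so this does not settle whether the numbers pair males, and the labels do not say. With the replicate block, ProAGG, ProCGG and ProTGG were at -0.15, -0.22 and -0.22 in F0 and at -0.29, -0.37 and -0.60 in F1, and 0 tRFs were called. Depth limits CO F0 replicate 3 and CO F1 replicate 2 most.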
